A study of Mus musculus with 11 samples.

Results

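Scavenger receptors are cell surface and lysosomal membrane proteins that bind modified lipoproteins, microbial surfaces, dead cells and other polyanionic ligands, and in artery walls they let macrophages load lipid and turn into foam cells. The name covers unrelated protein families that are grouped into classes by structure. Class A receptors (MARCO and SR-A, the product of Msr1) are trimers with a collagen-like stalk, class B receptors (CD36, SR-BI and LIMP-2) cross the membrane at both ends, and the remaining classes hold the lectin-like LOX-1, the chemokine CXCL16 in its membrane form, stabilin-2, and CD163, which takes up haptoglobin-haemoglobin complexes. Here 9 such genes (Marco, Msr1, Cd36, Scarb1, Scarb2, Olr1, Cxcl16, Cd163 and Stab2) were chosen by name from a table of 42375 named genes and are described over 11 RNA sequencing libraries. All 9 passed the filter on low counts, as did 15024 genes in all.

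The libraries came from bone marrow derived macrophages (BMDM, cells grown from marrow and differentiated in culture) labelled C57BL/6. The cells were in a state labelled M0 (resting) or M1 (classically activated). All of them were exposed for 16 hours to a gapmer, a short antisense molecule whose RNA target is cut by RNase H. One gapmer targeted MERRICAL, a long noncoding RNA (KD), and the other was the control labelled NS, so no group was free of gapmer. MERRICAL was not matched to an entry of the count table, so its own level with either gapmer is not given here. M0 NS, M0 KD and M1 NS had 3 libraries each and M1 KD had 2. Replicates were numbered 1, 2 and 4 in the first 3 groups and 5 and 6 in M1 KD, so the numbers of M1 KD occur in no other group. Neither the stimulus used for M1 nor the origin of the replicates in separate cultures is stated in the labels. What the p-values weigh is therefore the library-to-library spread alone, and that spread may be technical.

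Total counts ran from 30040632 to 43250392 per library. The 8 macrophage markers in the table were detected in every group, at a summed 25456 to 26791 CPM in M0 NS, 19204 to 20976 in M0 KD, 13222 to 15622 in M1 NS and 14307 to 17426 in M1 KD. Lyz2, the highest of the 8, averaged 17460 CPM in M0 NS and 5639 in M1 NS. By gene, 4 were called higher and 3 lower in M1 NS against M0 NS, beside 26.9% and 28.6% of all genes. Their median log2 fold change was 0.34. The M1 markers Nos2, Il12b and Il6 summed to at most 12.95 CPM in M0 libraries and at least 4522 in M1 libraries. CPM is a count scaled to a common library size after TMM scaling, a correction for library composition. Markers of neutrophils and their precursors, which marrow cultures can carry over, summed to 1294 to 2271 CPM in M0 NS, 726 to 748 in M0 KD, 240 to 313 in M1 NS and 206 to 225 in M1 KD. By gene, 9 of the 10 were called lower and 0 higher in M1 NS against M0 NS, beside the same 28.6% and 26.9%, with a median of -3.80. Lcn2 alone was at 95.7 to 163 CPM in M0 NS, 132 to 138 in M1 NS and 116 to 186 in M1 KD, so it held much of the M1 sums. Markers of dendritic cells (5 genes) summed to 8.07 to 9.27 CPM in M0 NS, 5.63 to 8.29 in M0 KD, 106 to 337 in M1 NS and 130.02 to 609 in M1 KD. Of these 5, 4 were called higher in M1 NS against M0 NS, Ccr7 with the largest rise, and 1, Flt3, was called lower. Mitochondrially encoded transcripts made up 1.02 to 1.14% of counts in M0 NS, 1.28 to 1.45% in M0 KD, 0.488 to 0.891% in M1 NS and 0.522 to 0.727% in M1 KD. The part of these differences in the results below was not tested. In such bulk libraries fewer expressing cells and less RNA per cell cannot be told apart.

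The stretches of DNA directly before 3 of the genes are shown because Marco and Olr1 were higher and Cd163 lower in M1. Each is the 250 bases before the RefSeq start site on GRCm38.p6, read 5′ to 3′ on the strand of the gene, at chr1:120505025-120505274 (minus strand) for Marco, chr6:129507166-129507415 (minus) for Olr1 and chr6:124304401-124304650 (plus) for Cd163. Capitals mark matches to a set of motifs searched on both strands.
Marco: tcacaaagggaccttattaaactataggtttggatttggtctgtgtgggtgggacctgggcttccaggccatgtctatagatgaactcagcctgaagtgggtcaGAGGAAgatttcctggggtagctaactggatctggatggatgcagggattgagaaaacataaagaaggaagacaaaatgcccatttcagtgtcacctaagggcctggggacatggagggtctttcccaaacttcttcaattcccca
Olr1: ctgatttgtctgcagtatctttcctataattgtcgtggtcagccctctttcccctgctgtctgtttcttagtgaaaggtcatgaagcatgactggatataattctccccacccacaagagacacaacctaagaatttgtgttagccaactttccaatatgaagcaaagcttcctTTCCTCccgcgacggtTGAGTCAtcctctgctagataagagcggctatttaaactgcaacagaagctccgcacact
Cd163: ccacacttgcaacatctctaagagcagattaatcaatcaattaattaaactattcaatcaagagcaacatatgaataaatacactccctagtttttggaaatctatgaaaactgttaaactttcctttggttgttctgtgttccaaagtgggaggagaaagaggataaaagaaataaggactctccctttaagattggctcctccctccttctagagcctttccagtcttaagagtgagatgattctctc
The motifs were those of PU.1 (GAGGAA), AP-1 (TGANTCA), the antioxidant response element (TGACNNNGC), C/EBP (TTGCNNAA), the TFEB family (CACGTG), the PPAR response element and the kappaB consensus. The Marco window held 1 match, to the PU.1 letters, from 146 to 141 bases before the start. In the Olr1 window the PU.1 letters were matched on the opposite strand at 76 to 71 bases and the palindromic AP-1 letters at 60 to 54 bases before the start. The windows of Cd163 and Stab2 held no match, nor did that of Cd36. The Scarb2 window had a kappaB match at 199 to 190 bases and an antioxidant response element match at 99 to 91 bases before the start. Of 32851 windows of this length over all genes, 23.3% held the PU.1 letters, 6.75% AP-1, 7.25% kappaB, 10.2% the antioxidant response element, 9.56% C/EBP, 6.02% the TFEB letters and 0.0335% the PPAR response element. Of the 9 genes 6 had an entry in the RefSeq table; Msr1, Scarb1 and Cxcl16 had none. The windows of Stab2, Cd36 and Scarb2 lie partly or wholly inside the gene as GENCODE M21 annotates it, and are not shown.

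To compare levels between genes, CPM was divided by the kilobases of annotated exon (GENCODE M21), and a different gene led in M0, in M1 NS and in M1 KD. Cd36 held most of the summed level in M0, with 50.4 to 56.7% in M0 NS libraries and 68.8 to 77.1% in M0 KD libraries. Marco held 69.1 to 72.4% in M1 NS. In M1 KD it was Cxcl16 that led, with 55.1 to 59.7%, while Marco held 4.93% in one library and 22.1% in the other. The summed level was 453 to 490 CPM per kb in M0 NS, 652 to 870 in M0 KD, 1444 to 2016 in M1 NS and 812 to 836 in M1 KD. The order in M0 NS was Cd36, Scarb2, Cxcl16, Msr1, Marco, Scarb1, Cd163, Stab2 and Olr1, where the ranges of Scarb2 and Cxcl16, and of Msr1 and Marco, overlapped. In M0 KD the order was Cd36, Msr1, Scarb2, Cxcl16, Marco, Scarb1, Cd163, Stab2 and Olr1, with overlap only of Scarb1 and Cd163. In M1 NS it was Marco, Cxcl16, Cd36, Msr1, Scarb2, Scarb1, Olr1, Cd163 and Stab2, with overlap between Cd36 and Msr1, Msr1 and Scarb2, and Cd163 and Stab2. In M1 KD it was Cxcl16, Cd36, Marco, Msr1, Scarb2, Scarb1, Olr1, Cd163 and Stab2, with overlap between Cd36 and Marco, Marco and Msr1, and Cd163 and Stab2. These lengths count every annotated exon of a gene, so the levels between genes depend on the annotation.

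**Figure D1:**
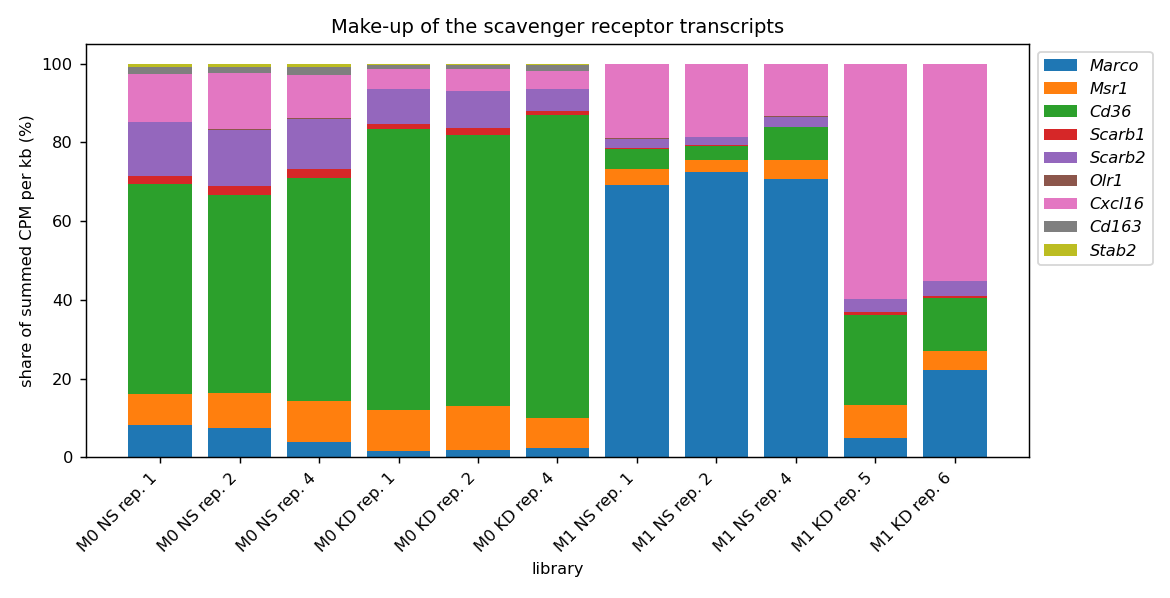
Share of each of the 9 genes (colours) in their summed CPM per kb of exon (y axis, %), with 1 bar for each of the 11 libraries (x axis). Cd36 takes at least 50.4% in every M0 library, Marco at least 69.1% in every M1 NS library, and Cxcl16 at least 55.1% in both M1 KD libraries.

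Marco, the class A receptor for bacteria and particles, had the widest span of the class A and B genes. It was at 76.2, 64.4 and 34.9 CPM in M0 NS replicates 1, 2 and 4, and at 21.6, 21.8 and 38.0 CPM in M0 KD replicates 1, 2 and 4. It was at 1922, 2164 and 2747 CPM in M1 NS replicates 1, 2 and 4, and at 77.1 and 355 CPM in M1 KD replicates 5 and 6. Every M1 NS library thus stood far above all M0 libraries, both M1 KD libraries lay below every M1 NS library, and the M0 KD range overlapped that of M0 NS. M1 KD replicate 5, at 77.1 CPM, was only just above the highest M0 NS library, at 76.2 CPM. With M1 the gene rose by 5.28 on the log2 scale under the NS gapmer (M1 NS against M0 NS, SE 0.54, edgeR adjusted p = 5.39e-06). It fell by 3.40 in M1 KD against M1 NS (SE 0.59, adjusted p = 9.85e-04), and M1 KD was still above M0 KD, by 2.99 (SE 0.51, adjusted p = 3.31e-04). The M1 KD libraries differed from each other 4.6-fold, and the M1 gapmer effect was -2.69 without M1 KD replicate 5 and -4.89 without replicate 6, called in both cases (adjusted p = 0.00384 and 2.11e-04). Against M0 KD the value was 3.70 without replicate 5 and 1.51 without replicate 6, also called (adjusted p = 2.06e-05 and 0.00887). In M0 its log2 fold change with the MERRICAL gapmer was -1.11 (SE 0.46, adjusted p = 0.365), which did not pass. The gene lies on chromosome 1 of GRCm38 from 120474538 to 120505024 on the minus strand, with 17 exon blocks.

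Msr1, the class A receptor for acetylated LDL, spanned a narrow range. Its levels were 245, 259 and 294 CPM in M0 NS replicates 1, 2 and 4 and 450.2, 473 and 420.4 CPM in M0 KD replicates 1, 2 and 4. The M1 levels were 383, 309 and 619 CPM in M1 NS replicates 1, 2 and 4, and 426 and 268 CPM in M1 KD replicates 5 and 6. M0 KD stood wholly above M0 NS, whereas M1 NS and M1 KD overlapped. The gene rose with M1 under the NS gapmer by 0.72 on the log2 scale (SE 0.24, adjusted p = 0.0230). That call ended without M1 NS replicate 4, the highest of its group (0.39, adjusted p = 0.0913), without M0 NS replicate 1 (0.66, 0.0778) or replicate 2 (0.70, 0.0623), with upper-quartile scaling (0.59, 0.0514) and with library size as the only scaling (0.34, 0.270). The M0 gapmer effect of 0.75 (SE 0.24, adjusted p = 0.284) did not pass over the 11 libraries. It is on chromosome 8, from 39581685 to 39642673 on the minus strand.

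Of the class B genes, Cd36, a receptor for fatty acids and oxidized lipoprotein, was at 941, 819 and 925 CPM in M0 NS replicates 1, 2 and 4 and at 1733, 1611 and 2408 CPM in M0 KD replicates 1, 2 and 4. It was at 259, 198 and 599.6 CPM in M1 NS replicates 1, 2 and 4 and at 669 and 398 CPM in M1 KD replicates 5 and 6. All M0 KD libraries were above all M0 NS libraries, all M1 libraries were below all M0 libraries, and the M1 groups overlapped. It fell by 1.35 with M1 under the NS gapmer (SE 0.36, adjusted p = 0.00655) and by 1.85 with M1 under the MERRICAL gapmer (SE 0.42, adjusted p = 0.00238). Neither gapmer effect passed, with 1.10 in M0 (SE 0.35, adjusted p = 0.288) and 0.60 in M1 (SE 0.39, adjusted p = 0.246). Without the filter on low counts edgeR called both (1.09, adjusted p = 4.78e-06, in M0 and 0.60, 0.0188, in M1). In M1 NS the highest library was 3.03 times the lowest. Without that library, replicate 4, the gapmer effect in M1 was 1.27 and was called (adjusted p = 0.00307). Cd36 lies on chromosome 5 from 17781690 to 17888801 on the minus strand.

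Scarb1, which encodes the HDL receptor SR-BI and moves cholesterol esters across the membrane, was at 84.2, 87.5 and 93.4 CPM in M0 NS replicates 1, 2 and 4 and at 79.1, 91.8 and 67.0 CPM in M0 KD replicates 1, 2 and 4. In M1 NS replicates 1, 2 and 4 it was at 22.1, 28.3 and 17.9 CPM, and in M1 KD replicates 5 and 6 at 44.2 and 37.6 CPM. The M0 groups overlapped, and M1 KD lay between M1 NS and M0 with no overlap. It fell with M1 under the NS gapmer by 1.96 (SE 0.17, adjusted p = 1.50e-06) and rose in M1 KD against M1 NS by 0.85 (SE 0.18, adjusted p = 0.00398). With the MERRICAL gapmer M1 was still lower than M0 (-0.96, SE 0.19, adjusted p = 9.65e-04). Scarb1 is on chromosome 5 from 125277087 to 125341094 on the minus strand.

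Scarb2 encodes LIMP-2, a lysosomal membrane protein. It was at 419, 405 and 363 CPM in M0 NS replicates 1, 2 and 4 and at 372, 384 and 305 CPM in M0 KD replicates 1, 2 and 4. In M1 NS replicates 1, 2 and 4 it was at 225, 204 and 324 CPM, and in M1 KD replicates 5 and 6 at 179 and 204 CPM. The highest M1 NS library lay below the lowest M0 NS library, and M1 KD lay just below M1 NS, by less than 1 CPM at the nearest libraries. The gene fell with M1 by 0.66 under the NS gapmer (SE 0.18, adjusted p = 0.00751) and by 0.89 under the MERRICAL gapmer (SE 0.20, adjusted p = 0.00252). The gapmer effects were -0.16 in M0 (SE 0.18, adjusted p = 0.691) and -0.39 in M1 (SE 0.20, adjusted p = 0.145), neither of which passed. Its position is chromosome 5 from 92441314 to 92506833 on the minus strand.

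Cxcl16, which acts as a scavenger receptor for phosphatidylserine and oxidized lipoprotein while on the membrane and as a chemokine once shed, did not overlap between any 2 groups. It was at 179, 196 and 150.2 CPM in M0 NS replicates 1, 2 and 4 and at 106, 112 and 122 CPM in M0 KD replicates 1, 2 and 4. It reached 828, 869 and 815 CPM in M1 NS replicates 1, 2 and 4, and 1464 and 1391 CPM in M1 KD replicates 5 and 6. M0 KD was lowest and M1 KD highest. It rose with M1 by 2.26 under the NS gapmer (SE 0.14, adjusted p = 1.10e-07) and by 3.66 under the MERRICAL gapmer (SE 0.16, adjusted p = 9.78e-09), and in M1 KD against M1 NS by 0.77 (SE 0.15, adjusted p = 0.00216). In M0 the gapmer effect was -0.63 (SE 0.14, adjusted p = 0.222), which did not pass. The gene spans 70453983 to 70459984 on the minus strand of chromosome 11 and overlaps Zmynd15 on the other strand. Since the strand setting of the counting is not known, their reads may not be fully separated, but Zmynd15 stood at only 4.53 to 31.6 CPM over all libraries.

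Olr1, which encodes LOX-1, a lectin-like receptor for oxidized lipoprotein, was low in every group, at 24 to 100 counts per library. It was at 1.21, 0.801 and 1.45 CPM in M0 NS replicates 1, 2 and 4 and at 0.797, 0.579 and 0.870 CPM in M0 KD replicates 1, 2 and 4. In M1 NS replicates 1, 2 and 4 it was at 2.47, 2.49 and 2.87 CPM, from 88, 63 and 100 counts, and in M1 KD replicates 5 and 6 at 1.13 and 2.45 CPM. M1 NS was above all other libraries, by a small margin over M1 KD replicate 6. It rose with M1 under the NS gapmer by 1.17 (SE 0.33, adjusted p = 0.0101) and under the MERRICAL gapmer by 1.24 (SE 0.38, adjusted p = 0.0139). With library size as the only scaling neither passed (0.78, adjusted p = 0.0695, and 0.75, adjusted p = 0.116). The latter also missed the threshold without M1 KD replicate 6 (0.58, adjusted p = 0.269) and without M0 KD replicate 2 (1.08, adjusted p = 0.05002). The gapmer effects were -0.62 in M0 (SE 0.35, adjusted p = 0.441) and -0.56 in M1 (SE 0.37, adjusted p = 0.264), the latter -0.10 without M1 KD replicate 5 and -1.22 without replicate 6 (adjusted p = 0.882 and 0.0552). Olr1 lies on chromosome 6 from 129485244 to 129507165 on the minus strand.

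Cd163 and Stab2 were moderate in M0 and nearly absent in M1. Cd163, the haemoglobin receptor, was at 51.7, 38.7 and 51.2 CPM in M0 NS replicates 1, 2 and 4 and at 35.8, 33.6 and 67.5 CPM in M0 KD replicates 1, 2 and 4. In M1 NS it had 19, 5 and 11 counts in replicates 1, 2 and 4 (0.532, 0.198 and 0.315 CPM), and in M1 KD 17 and 25 counts in replicates 5 and 6 (0.467 and 0.914 CPM). The M0 groups overlapped, as did the M1 groups, with a wide gap between the states. The fall with M1 was a log2 fold change of -7.02 under the NS gapmer (SE 0.40, adjusted p = 4.84e-08) and -6.08 under the MERRICAL gapmer (SE 0.44, adjusted p = 3.91e-07). The gapmer effects, -0.05 in M0 (SE 0.27, adjusted p = 0.949) and 0.88 in M1 (SE 0.54, adjusted p = 0.221), did not pass. In M1 the value was 1.32 without M1 KD replicate 5 and 0.36 without replicate 6 (adjusted p = 0.167 and 0.736), and without the filter on low counts it was called (0.89, 0.0482). Cd163 is on chromosome 6 from 124304656 to 124330527 on the plus strand.

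Stab2, the hyaluronan receptor best known from liver sinusoidal endothelium, was at 34.8, 31.9 and 36.0 CPM in M0 NS replicates 1, 2 and 4 and at 20.9, 19.7 and 33.2 CPM in M0 KD replicates 1, 2 and 4. In M1 NS it had 6, 10 and 8 counts in replicates 1, 2 and 4 (0.168, 0.396 and 0.229 CPM) and in M1 KD 28 and 16 counts in replicates 5 and 6 (0.768 and 0.585 CPM). M1 KD stood above M1 NS without overlap, but both were far below every M0 library. The log2 fold change with M1 was -7.06 under the NS gapmer (SE 0.31, adjusted p = 6.11e-09) and -5.16 under the MERRICAL gapmer (SE 0.32, adjusted p = 1.20e-07). The rise in M1 KD against M1 NS was 1.42 (SE 0.41, adjusted p = 0.0174). That call was lost without M1 KD replicate 5 (1.19, adjusted p = 0.153), without M1 NS replicate 1 (1.17, 0.0688), with limma-voom (1.44, 0.142) and in a fit of the M1 libraries alone (1.42, 0.113). The M0 gapmer effect was -0.48 (SE 0.20, adjusted p = 0.367). Of 8 endothelial markers, the sinusoidal Clec4g and Lyve1 had at most 0.0723 and 0.334 CPM in any library, while the list summed to 11.8 to 23.0 CPM in M0 and 64.3 to 187 CPM in M1, mostly from Kdr and Pecam1. Of the 6 tested, Kdr and Pecam1 were called higher and Lyve1 and Emcn lower in M1 NS against M0 NS, beside 26.9% and 28.6% of all genes. Below 0 lay 4 of the 6, and their median was -0.97, beside -0.04 for all genes. The part of such cells in the Stab2 values was not tested. Stab2 lies on chromosome 10 from 86841198 to 87008025 on the minus strand, where 5 short genes of the other strand overlap it, none above 0.190 CPM.

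**Figure D2:**
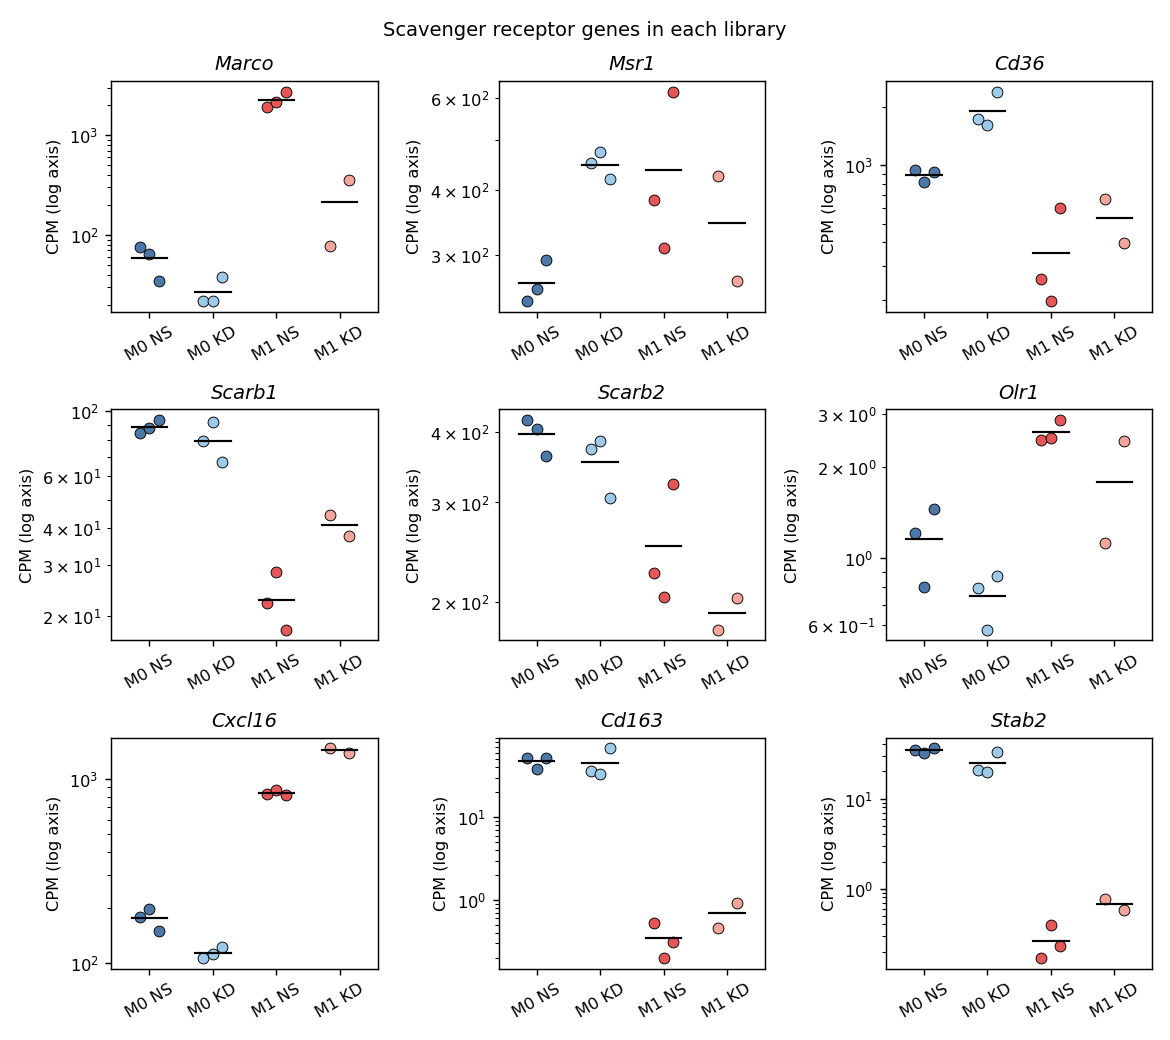
CPM of each of the 9 genes (1 panel each, log y axis with its own range) in each library, by group on the x axis; points are libraries and lines are group means. Marco is highest in M1 NS and Cxcl16 in both M1 groups, and Cd163 and Stab2 are below 1 CPM in every M1 library. The 2 points of M1 KD for Marco lie far apart, at 77.1 and 355 CPM, the lower one beside the highest M0 NS point at 76.2 CPM.

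Counted over the 9 genes, the state comparison under the NS gapmer called all 9, with 4 higher (Marco, Msr1, Olr1 and Cxcl16) and 5 lower (Cd36, Scarb1, Scarb2, Cd163 and Stab2). Of all genes tested 55.5% were called in that comparison, 26.9% higher and 28.6% lower. For all 9 the libraries of one state lay wholly apart from those of the other, which held for 61.4% of all genes. The median log2 fold change of the 9 was -0.66, beside -0.04 for all genes tested. Under the MERRICAL gapmer 8 of 9 were called, 3 higher and 5 lower, beside 58.3% of all genes, 26.9% higher and 31.4% lower, the ranges lay apart for 8 of 9 beside 74.9% of all genes, and Msr1 did not pass (-0.37, SE 0.27, adjusted p = 0.258). Msr1 was at -0.75 without M1 KD replicate 5 and -0.07 without replicate 6, and was called lower with library size as the only scaling (-0.85, adjusted p = 0.0235). The state comparisons under the NS and the MERRICAL gapmer use different libraries. With library size as the only scaling, which moved the median of all genes in the NS state comparison to -0.42, all 9 signs were kept but Msr1 and Olr1 were no longer called, so that 2 were higher and 5 lower.

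In M0 cells none of the 9 genes was called for the gapmer by edgeR with the filter on low counts, and neither was any of all genes tested (0%). At an unadjusted p under 0.05 there were 5 of 9, namely Marco, Msr1, Cd36, Cxcl16 and Stab2, beside 13% of all genes. The ranges did not overlap for 3 of 9 (Msr1, Cd36 and Cxcl16), or 33.3%, close to the 35.1% of all genes. DESeq2 called 1 of 9, Cxcl16 (-0.64, adjusted p = 4.96e-04), and 221 of 15024 genes in all, and limma-voom and limma-trend called none. Without the filter edgeR called 385 of 29288 genes. Of the 9, Msr1 (0.74, adjusted p = 0.00495) and Cd36 (1.09, 4.78e-06) were then called higher. Marco (-1.12, 1.68e-06) and Cxcl16 (-0.64, 0.0332) were called lower. A fit of the 6 M0 libraries alone, which has a smaller spread, called Msr1 (0.76, SE 0.10, adjusted p = 0.0171) and Cd36 (1.11, SE 0.16, adjusted p = 0.0202) higher and Cxcl16 lower (-0.62, SE 0.11, adjusted p = 0.0262), beside 1103 of 13683 genes in all. In M0 KD the summed neutrophil markers were lower than in every M0 NS library, as given above, and their part in these values was not tested.

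In M1 cells 4 of 9 were called for the gapmer, 3 higher (Scarb1, Cxcl16 and Stab2) and 1 lower (Marco), or 44.4%, beside 36.8% of all genes, 17.6% higher and 19.2% lower. Groups did not overlap for 6 of 9, against 52.4% of all genes. The median of the 9 was 0.60, beside 0.00103 for all genes. This comparison shares its NS libraries with the state comparison under the NS gapmer. In these side by side, Marco had log2 fold changes of 5.28 with M1 and -3.40 with the gapmer in M1, Scarb1 of -1.96 and 0.85, Stab2 had log2 fold changes of -7.06 and 1.42, and Cxcl16 of 2.26 and 0.77.

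**Figure D3:**
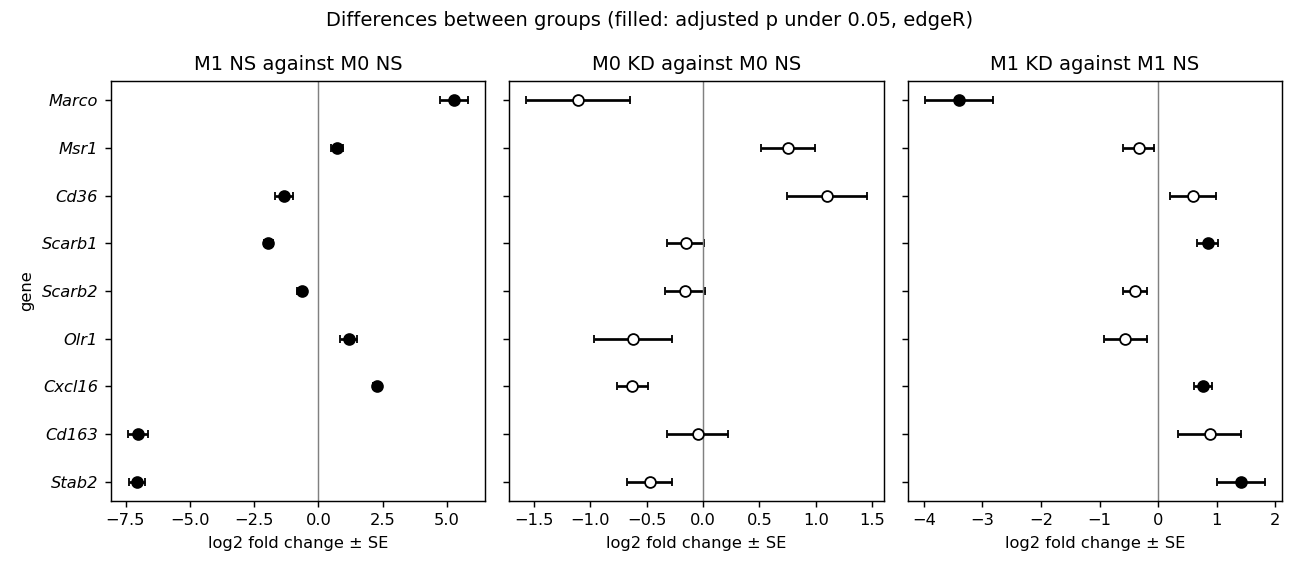
Log2 fold change with its standard error (x axis, a different range in each panel) of the 9 genes (y axis) in 3 comparisons; filled points have an edgeR adjusted p under 0.05. All 9 points are filled for M1 NS against M0 NS, none for M0 KD against M0 NS, and those of Marco, Scarb1, Cxcl16 and Stab2 for M1 KD against M1 NS.

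The difference of the gapmer effects, M1 minus M0, was tested in the same fit and called 5 of 9, beside 27.3% of all genes. Cxcl16 differed by 1.40 (SE 0.20, adjusted p = 6.73e-04), with effects of -0.63 in M0 and 0.77 in M1, and this call held under every alternative run, at 1.29 to 1.53. Stab2 differed by 1.90 (SE 0.46, adjusted p = 0.00999) and Scarb1 by 1.003 (SE 0.25, adjusted p = 0.0114). Both lost the call without M1 KD replicate 5 (adjusted p = 0.0776 and 0.0519), and Stab2 with limma-voom (0.0722). Marco differed by -2.29 (SE 0.70, adjusted p = 0.0301) and Msr1 by -1.08 (SE 0.36, adjusted p = 0.0428). Left out in turn, 6 of 11 libraries ended the call for Marco, namely M0 NS replicates 2 and 4, M1 NS replicates 2 and 4, M0 KD replicate 4 and M1 KD replicate 5 (adjusted p = 0.0538, 0.0676, 0.0538, 0.0824, 0.0688 and 0.0665). Marco was -1.58 without M1 KD replicate 5 and -3.78 without replicate 6. For Msr1, 9 libraries did so when left out, all except M1 NS replicate 2 and M1 KD replicate 5 (adjusted p = 0.0538 to 0.170). For Cd36, Scarb2, Olr1 and Cd163 the difference did not pass (adjusted p = 0.276 to 0.938).

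Of 16 further scavenger receptor genes from the consensus classes, 11 were tested and Scara3, Scara5, Asgr1, Megf10 and Cd163l1 were too low. With M1 under the NS gapmer 7 of 11 fell and 1 rose, beside 28.6% and 26.9% of all genes, with a median of -1.67 beside -0.04. Mrc1, the mannose receptor, averaged 453 ± 89.1 CPM over M0 NS and 8.16 ± 3.08 over M1 NS (SD over 3 libraries each), a log2 fold change of -5.79 (adjusted p = 2.62e-07 with edgeR across all genes), and the collectin Colec12 fell by 3.83. Scarf1, which binds acetylated LDL, rose by 0.50 on the log2 scale (adjusted p = 0.00437), a call that ended with library size as the only scaling. In M1 KD against M1 NS 5 of 11 rose and 4 fell, beside 17.6% and 19.2% of all genes, with a median of 0.81. With upper-quartile scaling, which put 61.3% of all calls on the higher side in place of 47.8%, 6 rose. Mrc1 rose by 2.86 to 59.05 ± 13.6 CPM (SD, n = 2). The endocytic receptor gene Lrp1 fell by 1.95, from 586 ± 203 to 152 ± 83.6 CPM, and Stab1, the relative of Stab2, by 1.79, from 203 ± 75.5 to 58.7 ± 5.18 CPM. Stab1 and Stab2 thus lay on different sides of 0 in M1 KD against M1 NS. Lrp2 was also called higher, from 2, 1 and 0 counts in M1 NS to 21 and 7 in M1 KD, too few for a fold change, and lost the call without M1 KD replicate 5 or M1 NS replicate 4 (adjusted p = 0.178 and 0.0577). In M0 none of the 11 genes was called for the gapmer in the edgeR fit of all 11 libraries, with a median of 0.09. A fit of the M0 libraries alone called Scarf1 lower (-0.41, adjusted p = 0.0375).

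**Figure D4:**
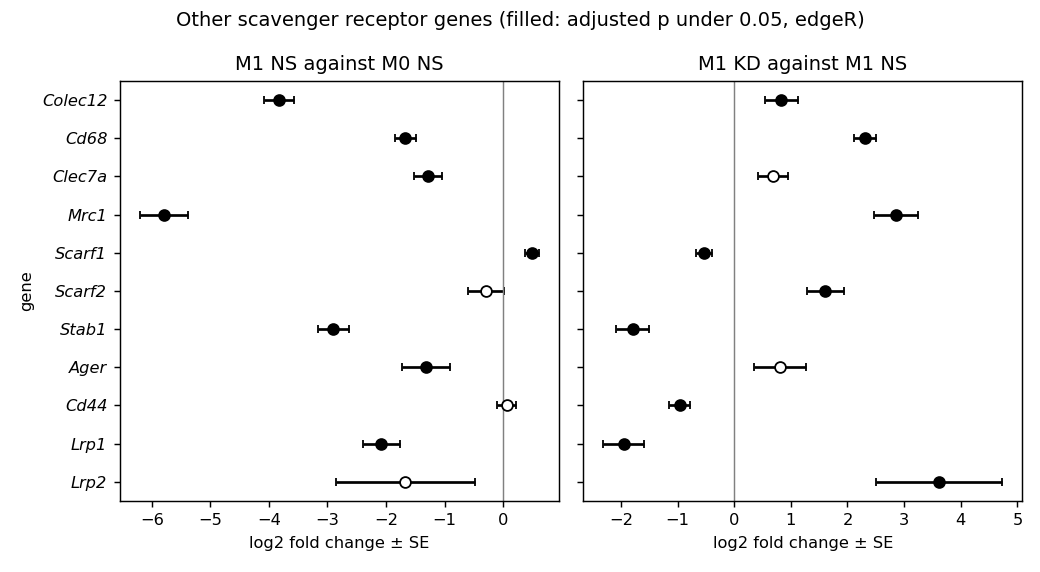
Log2 fold change with its standard error (x axis, own range per panel) of the 11 tested scavenger receptor genes outside the 9 (y axis), for M1 NS against M0 NS and for M1 KD against M1 NS; filled points have an edgeR adjusted p under 0.05. Mrc1 is at -5.79 on the left and 2.86 on the right, whereas Stab1 and Lrp1 are below 0 in both panels.

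Lipids taken up by these receptors are hydrolysed, stored or exported by genes of which 14 were listed and all tested. With M1 under the NS gapmer 10 fell and 3 rose, beside 28.6% and 26.9% of all genes, with a median of -1.03. Pparg, the nuclear receptor known to act on Cd36, averaged 34.4 ± 4.61 CPM over M0 NS and 0.916 ± 0.0747 over M1 NS (SD over 3 libraries each), a log2 fold change of -5.23, and the fatty acid binding protein gene Fabp4 fell by 4.07. Nr1h3, the oxysterol receptor LXR alpha, rose by 1.35. For the gapmer in M0, none of the 14 was called in the edgeR fit of all 11 libraries, with a median of 0.0159. The lipoprotein lipase gene Lpl ranged there from 2615 to 2727 CPM with the NS gapmer and from 4542 to 5544 with the MERRICAL gapmer. DESeq2 called this rise (0.87, adjusted p = 0.00215). So did edgeR without the filter on low counts (0.87, 0.00220) and in a fit of the M0 libraries alone (0.89, 0.0153). In M1 KD against M1 NS 6 rose and 2 fell, beside 17.6% and 19.2% of all genes, with a median of 0.15. Fabp5 rose by 2.94, from 62.3 ± 19.9 to 477 ± 184 CPM, and Lpl by 1.94, from 337 ± 70.8 to 1293 ± 368 CPM. The cholesterol exporter gene Abca1 fell by 1.29, a call lost without M1 KD replicate 5 (-1.03, adjusted p = 0.0714). Nr1h3 fell by 0.55 and was not called with upper-quartile scaling, in a fit of the M1 libraries alone or without M1 KD replicate 5 (-0.37).

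Over the 11 libraries, the gene whose log2 CPM followed Marco most closely among 8108 compared was Fpr2 (Pearson r = 0.989), a formyl peptide receptor, and then Cry1 (0.986). For Cd36 these were Galnt7 (0.988) and Zfp367 (0.976), for Scarb1 Fbxo21 (0.993) and St3gal2 (0.990), and for Scarb2 Dclre1b (0.987) and Tlr2 (0.978). Cxcl16 was nearest to Tnfaip2 (0.996) and the ferritin gene Fth1 (0.995), Cd163 to Abcb10 (0.992) and Prkra (0.992), and Stab2 to Rgs10 (0.998) and Eef2k (0.997). Msr1 had lower values, at 0.940 for Gmps and 0.917 for Noc3l, as had Olr1, at 0.948 for Plbd1 and 0.944 for Snrnp40. Among the 9 themselves, Cd163 and Stab2 were nearest (0.983), and Marco ran with Olr1 (0.907) and against Scarb1 (-0.940). Msr1 stayed between -0.358 and 0.259 with each of the others. All these correlations describe 11 libraries in 4 groups that share the gap between M0 and M1.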

How the data were processed

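RNA was measured in 11 libraries of bone marrow derived macrophages. The genome build was GRCm38 and the tools were Subread 1.5.2 (featureCounts), STAR 2.5.2b and Trimmomatic 0.36, per the submitters' processing notes. The deposited raw count table was used for all tests. The authors' normalized table holds a signal, each raw count divided by 1 constant per library, for 22812 genes with at least 6 counts in total, and served 1 alternative. An entry with a blank name, at most 0.000305% of counts, was left out.

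Genes were kept by filterByExpr (minimum count 10, minimum total 15) and tested with edgeR 4.0.16 in R 4.3.3, using TMM factors and a robust quasi-likelihood fit of all 11 libraries with a coefficient per group. Benjamini-Hochberg adjustment ran over all 15024 genes, with calls under 0.05. A standard error is the log2 fold change divided by the square root of its F value. For likeness, log2 CPM (prior count 2) of genes with a mean of at least 3 was used. Alternatives were other scalings and filters, the robust option off, DESeq2 1.42.0, limma 3.58.1 (voom, and trend on log2 of the normalized values plus 1), the compared groups alone, a replicate block, a threshold of 0.01 and each library left out. The procedure was tested on simulated data. From each list the called genes that rose most (2) and fell most (2) could be named, except that Adam10 and Adam17 were chosen after their values were seen. The 9 genes and all lists were chosen with earlier results of these data known. Some list genes and a searched motif are not reported here.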

Additional observations from a re-analysis of the deposited data

Results flagged for a closer look

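The effect of the MERRICAL gapmer differed between M1 and M0 for 5 of the 9 genes by the edgeR test of the difference itself, beside 27.3% of all genes. The difference, M1 minus M0 on the log2 scale, was 1.40 for Cxcl16, which was lower with the gapmer in 3 of 3 M0 KD libraries than in any M0 NS library and higher in 2 of 2 M1 KD libraries than in any M1 NS library. Ranges lay apart in this way, in either direction, for 35.1% of all genes in M0 and 52.4% in M1. The M0 effect of Cxcl16 by itself was not called in the edgeR fit of all 11 libraries (-0.63, adjusted p = 0.222). The difference was 1.90 for Stab2, at 16 to 28 counts in M1 KD and 6 to 10 in M1 NS, and 1.003 for Scarb1. It was -2.29 for Marco, whose effects were -1.11 in M0 and -3.40 in M1, both below 0, and -1.08 for Msr1, whose effects were 0.75 and -0.33. With libraries left out in turn, the call was lost for Marco with 6 of them, for Msr1 with 9, and for Stab2 and Scarb1 without M1 KD replicate 5. The numbers of the M1 KD libraries occur in no other group, so whatever those numbers stand for and the group cannot be told apart.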

How the results depend on the processing

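All 9 genes were called in M1 NS against M0 NS, 4 higher and 5 lower, and 2 were higher both with library size as the only scaling and at a threshold of 0.01. In M0 KD against M0 NS the number of all genes called was 0, but 385 without the filter, 221 with DESeq2 and 1103 in the M0 libraries alone, and 0 to 1 with each library left out. Members called higher were then 2 without the filter and 2 in the M0 libraries alone, and members called lower 2, 1 with DESeq2 and 1. In M1 KD against M1 NS 5535 genes were called, 3104 in the M1 libraries alone, 3258 at 0.01 and 3658 to 5796 with each library left out, the lowest without M1 KD replicate 5; members called higher were 5 without the filter. For the difference of the gapmer effects 4095 genes were called and 1956 at 0.01. Its members called higher ranged from 1 to 3 with each library left out, and those called lower from 0 to 1, with 1 under upper-quartile scaling and 0 at 0.01. Signs turned only for values that were not called. These were Cd163 in M0 KD against M0 NS (0.0125 with library size only, -0.44 to 0.13 over libraries left out) and Msr1 in M1 KD against M1 NS (-0.71 to 0.0447). In the difference of the gapmer effects they were Cd36 (-0.93 to 0.17) and Scarb2 (-0.36 to 0.0324), both turned without M1 NS replicate 4, and Olr1 (-0.0367 with library size only, -0.0987 with limma-voom, -0.0138 with limma-trend, -0.59 to 0.53 over libraries left out). The cause was not tested. Deviations from the group mean correlated at r from -0.115 to 0.135 between libraries with the same number and from -0.142 to 0.173 between others. For M0 NS with M0 KD they were 0.135, 0.0221 and 0.124 with the same number and -0.133 to 0.0323 otherwise. A block by replicate number in 9 libraries gave 8048 genes called in M1 NS against M0 NS, with 4 members higher and 5 lower. It gave 0 in M0 KD against M0 NS. M1 KD shares no number, so its comparisons had no block. Of calls over all genes, 48.5% were higher in M1 NS against M0 NS and 26.7% with library size only, 46.1% and 25.1% in M1 KD against M0 KD, and with upper-quartile factors 61.3% in place of 47.8% in M1 KD against M1 NS and 59.2% in place of 48.0% for the difference. Depth limits Olr1 everywhere and Cd163 and Stab2 in M1, where counts were 5 to 28 for the last 2.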

Other observations

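Haemoglobin taken up through CD163 is broken down and its iron stored or exported. Of 10 listed genes of this route in the table, 4 rose and 4 fell with M1 under the NS gapmer, beside 26.9% and 28.6% of all genes (3 and 6 with library size as the only scaling). Hmox1, the haem oxygenase, rose by 1.94 and the ferritin gene Fth1 by 1.45 on the log2 scale, while the iron exporter gene Slc40a1 fell by 3.13 and Blvra by 1.201. In M1 KD against M1 NS 3 rose, with Ftl1 at 1.10 and Nfe2l2 at 0.64 the largest, and 1 fell, Hmox1 at -0.92 (1879 ± 644 against 3554 ± 888 CPM, SD, n = 2 and 3). The fall of Hmox1 was not called in a fit of the M1 libraries alone or without M1 KD replicate 6 (-0.61).

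Of 13 transcription factors known to act on scavenger receptor genes, 6 rose and 6 fell with M1 under the NS gapmer, beside the same 26.9% and 28.6% (5 and 7 with library size as the only scaling). In M1 KD against M1 NS 5 rose and 4 fell, beside 17.6% and 19.2% of all genes, and in a fit of the M1 libraries alone 2 rose. Cebpb rose from 149 ± 15.9 to 536 ± 35.0 CPM (log2 fold change 1.85), while Maf fell from 302 ± 48.4 to 54.0 ± 29.95 CPM (-2.48 on the log2 scale; SD, n = 3 and 2). Of 12 partner genes 3 rose and 5 fell with M1 under the NS gapmer, beside 26.9% and 28.6% of all genes. In M1 KD against M1 NS 2 rose and 5 fell, beside 17.6% and 19.2% of all genes (1 and 2 in a fit of the M1 libraries alone). In M1 KD Tlr4, a co-receptor of CD36, fell by 1.77 and Tlr2 by 1.30, the latter not called without either M1 KD library, with limma-voom (-1.11, adjusted p = 0.0551) or in a fit of the M1 libraries alone (-1.26, 0.111). The sheddase genes Adam10 and Adam17, whose products cut CXCL16, were at -0.66 (adjusted p = 0.0927, edgeR across all genes) and -0.70 (0.0139) in that comparison. In M0 no gene of these 3 lists was called for the gapmer in the edgeR fit of all 11 libraries. A fit of the M0 libraries alone called Cebpb (-0.71, adjusted p = 0.0331) and Tfeb (-0.51, adjusted p = 0.0225) lower. Cebpb was also called lower by edgeR without the filter on low counts (-0.74, adjusted p = 0.00235) and by DESeq2 (-0.73, adjusted p = 0.00864).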
